A study of Mus musculus with 8 samples.

Results

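Of the 9225 genes measured by a probe of the same sequence on both array designs, 10 were selected on one contrast of this study, that of hepatocytes derived from bone marrow (BM) 5 months after transplantation with primary hepatocytes. They were the 5 genes with the largest falls (Myom2, Rad51b, Igsf23, Gdpd3 and Abhd1) and the 5 with the largest rises (Clec2h, Fam25c, Tff3, Sugct and Rprd1b), among 52 genes that passed the test of that contrast in a fit across all 8 arrays. These 52 came from 6779 genes detected well over background by all 4 arrays of the contrast and with an entry in the RefSeq gene table. The gap between 5-month and primary hepatocytes is therefore what chose them, and it is given below as a description with no test. In each direction the members end where the next gene begins. Among the 52, the fifth fall was Abhd1 at -4.68 on the log2 scale and the next gene was Abcb1b at -4.32, and the fifth rise was Rprd1b at 3.66 and the next gene was Mcm6 at 3.43. By size alone the 5 falls would have been the same, whereas Marco (4.71), Elovl3 (3.80), Ccl4 (3.75), Nat8f5 (3.74) and Col5a3 (3.69), which had not passed that test, lay above Rprd1b.

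RNA was hybridised to 1-colour Agilent arrays in 4 groups of 2 arrays. Lin- BM cells (arrays L3 and L4), bone marrow depleted of cells bearing markers of mature blood lineages, came from female mice aged 6 to 8 weeks that express eGFP broadly from a ubiquitin C promoter, strain C57Bl6/J-Tg(UBCGFP) 30Scha/J. Such cells were given to male hemophilia A mice (carrying the F8tm1Kaz allele and lacking functional factor VIII) after liver injury by acetaminophen at 6 to 8 weeks of age. From these mice, eGFP-positive hepatocytes were sorted 1 month (B1 and B2) or 5 months (G1 and G3) later, after perfusion of the liver with collagenase. The 5-month animals were thus older when sampled than the 1-month animals, and age cannot be told apart from time after transplantation. Primary hepatocytes (H2 and H4) were the reference, and the strain, sex, age and treatment of the mice they came from are not given in the sources used here. What limits the BM-derived groups as a model is that they were defined by eGFP, that cells of several mice were pooled for an array, and that some sorted cells had arisen by fusion of a donor cell with a recipient hepatocyte. The transplanted animals differ from the donors in strain, genotype and sex, and both BM-derived groups share the injury and the transplantation. The arrays of a group are described as separate experiments on pooled cells, although the labels do not tie an array to an experiment, so p-values measure the spread between these arrays.

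One slide carried Lin- BM cells and 1-month hepatocytes, and another slide of another design carried primary and 5-month hepatocytes. Slide, design and group cannot be told apart in any comparison across slides. Between 47.7% and 58.6% of the probes of an array were well above background, the upper quartile of the signal was 75 to 192.1 intensity units, and 0 spots were saturated. The number of arrays limits the precision. Of the hepatocyte markers, 8 of 8 were detected well above background in 5-month and in primary hepatocytes, 7 of 7 at 1 month, and 2 of 7 in Lin- BM cells, each on both arrays of a group. The sex-linked genes did not match the labels throughout. Xist, the noncoding RNA expressed from the inactive X chromosome of female cells, was well above background on 2 of 2 Lin- BM cell arrays and on 0 of 6 hepatocyte arrays, whereas Ddx3y and Eif2s3y, which lie on the Y chromosome, were well above background on 8 of 8 arrays, those of the female donors included. The sorted hepatocytes are described as derived from female donors, and the paper reports most of them without a Y chromosome by FISH. On the log2 scale of their slide, Ddx3y was at 2.78 and 2.61 at 5 months and at 2.62 and 2.91 in primary hepatocytes. Eif2s3y was at 3.79 and 3.57 at 5 months and at 4.12 and 3.88 in primary hepatocytes. The cause of this mismatch was not tested. Of the Kupffer cell markers, 6 of 6 were higher on each 5-month array than on each primary array, which is taken up beside Clec2h and Tff3.

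The 10 genes are not known as members of a common pathway. Myom2 encodes myomesin-2, which crosslinks thick filaments in the M-band of striated muscle. Rad51b encodes a protein of DNA repair by homologous recombination. Gdpd3 encodes an enzyme of the glycerophosphodiester phosphodiesterase family that releases lysophosphatidic acid from lysophospholipids, Abhd1 belongs to the alpha/beta hydrolase domain family, and Igsf23 encodes a predicted membrane protein of the immunoglobulin superfamily. Among the rises, Clec2h (also called Clr-f) encodes a C-type lectin-related surface protein recognised by an inhibitory receptor of the NKR-P1 family and is known from gut epithelium. Tff3 encodes trefoil factor 3, a small peptide secreted by goblet cells that protects and repairs mucosa, and Sugct encodes a mitochondrial enzyme that activates glutarate by transfer of coenzyme A. Rprd1b (also called Crept) encodes a protein that binds the C-terminal domain of RNA polymerase II. Fam25c is known by its sequence family.

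The measurements rest on these probes, each 60 bases long. The probes of identical sequence on both designs are shown because they alone can be followed through all 4 groups. The first 30 bases of each are printed, 5′ to 3′, in lower case, with the place of the whole probe on mm9 as the array files give it; strand is not given there.
Myom2, chr8:15133322-15133381: cacatttctggaaaccctttgtggagcctt
Rad51b, chr12:80915000-80915059: ggactgcgctgcttggaaaaaggaaacgga
Igsf23, chr7:20523598-20524579: catcggaggattagtcctgatcggatctgt
Gdpd3, chr7:133914520-133914693: ctgtggatggatgaaccaactgtcggctac
Abhd1, chr5:31256786-31256925: agccaattgaaaaggtgttggatgtagact
Clec2h, chr6:128626525-128626584: gccaagcactatttattgatattgatctta
Fam25c, chr14:35165215-35166894: tggagagaaggccattaatgacgccctaaa
Tff3, chr17:31262279-31262338: ctgctgcaggccaataaaggagccaggagt
Sugct, chr13:16949698-16949757: agatatgatgagggggctattgagaagcta
Rprd1b, chr2:157902024-157902083: tgaagtccaaaagccataagaaggaattca
Rprd1b, its other shared probe, chr2:157869169-157869228: tttagaaagattgctgaacatctggcaaga
The probes of Igsf23, Gdpd3, Abhd1 and Fam25c span 982, 174, 140 and 1680 bases of the genome although they hold 60, so they lie across exon junctions. The exon or untranslated region of the other probes was not determined here. RefSeq lists Abhd1 as a transcribed pseudogene and the other 9 genes as protein-coding.

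Levels are given as the log2 of the background-subtracted signal minus the 75th percentile of the array over the probes of identical sequence. A value of 0 is thus the level of the upper quartile of an array, and 1 unit is a doubling. Levels of different genes come from different probes and are not compared with each other.

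Myom2 had the largest gap of the 10 genes. Its level was 4.27 and 4.0 in primary hepatocytes, 0.51 and 1.34 at 1 month, -4.62 and -3.85 at 5 months, and -4.78 and -4.88 in Lin- BM cells. The background-subtracted signals behind these levels were 8956 and 6437 units in primary hepatocytes, 291.8 and 588.4 at 1 month, 15.5 and 22.9 at 5 months, and 18.1 and 17.2 in Lin- BM cells. The 4 groups thus did not overlap, and the 5-month arrays lay close to those of Lin- BM cells, 0.60 above them in the mean, although all 8 arrays were well above background. Between 5-month (-4.23 ± 0.55, SD, n = 2) and primary hepatocytes (4.14 ± 0.20) the difference was -8.37, and the values after ± below are likewise SDs of 2 arrays. The 1-month mean (0.93 ± 0.58) lay between, at -3.21 from primary hepatocytes and 5.16 above 5 months.

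Myom2 is best known from muscle, so markers of skeletal and heart muscle were read beside it. Tnnt2 was not well above background on any of the 8 arrays, Acta1 and Ckm on none of the hepatocyte arrays, and of 7 markers 1 (Myh6) exceeded background clearly on all arrays of primary and of 5-month hepatocytes. The summed level of the 7 markers, in units of the upper quartile of an array, was 0.203 to 0.215 in primary hepatocytes and 0.281 to 0.283 at 5 months, and since most of these markers were near background the sums hold mostly background signal. On the slide of Lin- BM cells, by the probes of that design, the sum was 0.575 to 0.647 at 1 month and 1.18 to 1.23 in Lin- BM cells. Sums on different slides rest on different probes and are not compared.

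Rad51b was at 1.40 and 0.88 in primary hepatocytes, 1.92 and 0.87 at 1 month, -4.15 and -4.87 at 5 months, and -3.44 and -2.07 in Lin- BM cells. The 1-month and primary arrays overlapped, with means of 1.40 ± 0.74 and 1.14 ± 0.37, and both lay far above the 5-month arrays (-4.51 ± 0.51). The 1-month mean exceeded that of 5 months by 5.91, and 5 months minus primary hepatocytes was -5.65. The 5-month arrays were the lowest of the 4 groups, with a difference of -1.76 from the mean of Lin- BM cells. The other Rad51b probes gave no second measurement of this gap. On the slide of primary hepatocytes the other probe (chr12:80609478-80609537) was not well above background on any of the 4 arrays, and the other probe on the slide with Lin- BM cells was well above background on 1 of 4 arrays, L4.

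Igsf23 was at 0.58 and 0.79 in primary hepatocytes, 0.69 and 0.43 at 1 month, -4.25 and -4.32 at 5 months, and -2.44 and -4.57 in Lin- BM cells. Here, too, the 1-month and primary arrays overlapped (0.56 ± 0.18 and 0.68 ± 0.15). The 5-month arrays lay within the range of the Lin- BM cell arrays, which were themselves 2.14 apart, the widest gap between paired arrays of any of the 10 genes. The sign of the difference between 5-month and Lin- BM cells (-0.78) turned to 0.29 without L3. The second probe of Igsf23, found on the slide with Lin- BM cells, did not rise well above background in that group, and the 1-month level was at least 9.55-fold higher.

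For Gdpd3 the levels were 1.77 and 2.44 in primary hepatocytes, 2.92 and 3.21 at 1 month, -2.81 and -2.49 at 5 months, and -5.09 and -5.22 in Lin- BM cells. No groups overlapped, and the order was 1 month, primary hepatocytes, 5 months and Lin- BM cells. The mean at 1 month (3.07 ± 0.21) was 0.96 above primary hepatocytes (2.10 ± 0.48), more than the gap within either group, and 5.72 above 5 months (-2.65 ± 0.22). Unlike Rad51b and Igsf23, Gdpd3 at 5 months stayed above Lin- BM cells on each array, by 2.50 in the mean.

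Abhd1 varied least between arrays of a group. Its levels were 1.56 and 1.54 in primary hepatocytes, 1.63 and 1.56 at 1 month, -3.13 and -3.13 at 5 months, and -4.09 and -4.60 in Lin- BM cells. The 1-month and primary means were 0.04 apart, whereas the 5-month mean differed from primary hepatocytes by -4.68 and was 1.22 above Lin- BM cells. In the RefSeq table Abhd1 overlaps Preb, which regulates transcription and vesicle budding at the endoplasmic reticulum. Preb differed by 0.46 between 5-month and primary hepatocytes on their slide and was not called by limma (adjusted p = 0.474).

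**Figure D1:**
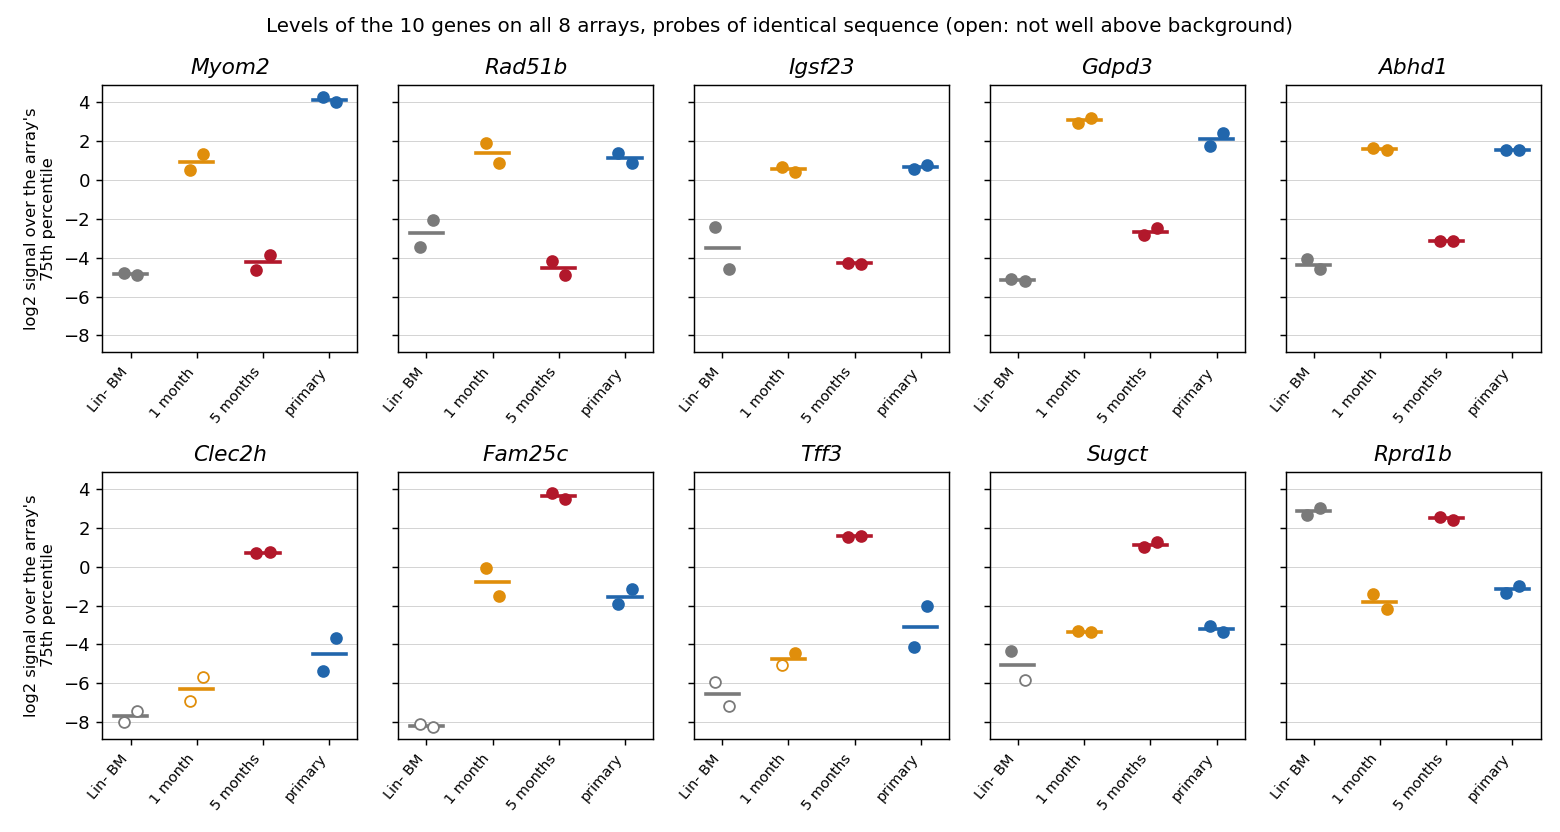
Level of each of the 10 genes on all 8 arrays, as log2 signal over the array's 75th percentile across probes of identical sequence; points are arrays, open where the probe was not well above background, and lines the mean of 2 arrays. In the upper panels the 5-month arrays lie below the 1-month and primary arrays, with Myom2 at -4.62 and -3.85, and in the lower panels they lie above them.

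Among the rises, Clec2h was measured well above background in 2 of the groups. It was at -5.35 and -3.67 in primary hepatocytes and at 0.70 and 0.75 at 5 months, and neither of the other groups had an array well above background. Its measured values there were -6.89 and -5.67 at 1 month and -7.99 and -7.41 in Lin- BM cells. The primary arrays were 1.68 apart and the 5-month arrays 0.05, and the means differed by 5.23. No fold is given between 1 month and Lin- BM cells, since both were dim on both of the Clec2h probes of their slide.

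Tff3, like Clec2h, was highest at 5 months, followed by primary hepatocytes. It was at -4.15 and -2.02 in primary hepatocytes, 1.53 and 1.59 at 5 months, -5.07 and -4.46 at 1 month, where 1 of 2 arrays (B2) was well above background, and -5.92 and -7.15 in Lin- BM cells, where neither was. The difference between 5-month (1.56 ± 0.04) and primary hepatocytes (-3.09 ± 1.51) was 4.65, and the primary arrays were 2.13 apart. Of the 6 markers of intestinal epithelium and goblet cells read beside Tff3, Muc2, Agr2 and Cdx2 were not well above background on any of the 8 arrays. Fabp2, a fatty acid binding protein, was well above background on all 8, with 7.10 and 7.17 in primary hepatocytes and 7.06 and 7.15 at 5 months on the scale of their slide. The goblet cell gene Zg16 was higher on both 5-month arrays (-2.85 and -2.51) than on the primary arrays (-3.30 and -5.0, the latter not well above background) and was not called by limma, and Vil1 did not pass the filter. In units of the upper quartile, the summed level of the 6 was 137 to 144 in primary hepatocytes and 134 to 142 at 5 months. Nearly all of it was Fabp2, so the sum says little about the other markers. On the slide of Lin- BM cells, by the probes of that design, the sum was 120.0 to 146 at 1 month and 2.21 to 4.56 in Lin- BM cells. Sums on different slides rest on different probes and are not compared. The part of such cells in the level of Tff3 was not tested.

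Clec2h and Tff3 were read beside the Kupffer cell markers, genes of the resident macrophages of the liver. On the slide of primary hepatocytes, 6 of 6 of these markers were higher on H4 than on H2, with a median gap of 1.1 on the log2 scale. So were Fam25c (-0.23 on H2 and 0.51 on H4), Rprd1b (0.37 and 0.67) and, with wider gaps, Clec2h (-3.64 on H2 and -2.0 on H4, on the scale of all probes of that slide) and Tff3 (-2.45 and -0.35), while Sugct was lower on H4 (-1.34 and -1.69). Other marker lists also held genes higher on H4. These were 3 of 4 female-biased liver genes (median gap 1.28), 6 of 9 male-biased liver genes (0.29) and 4 of 6 blood and leukocyte genes (0.33). Of the intestinal markers 1 of 2 was higher on H4, and of the muscle markers 0 of 1. The summed level of the 6 Kupffer cell markers was 21.8 to 45.9 times the upper quartile in primary hepatocytes and 90.7 to 96.1 at 5 months. On the slide of Lin- BM cells, by the probes of that design, it was 9.13 to 39.2 at 1 month and 1.07 to 3.52 in Lin- BM cells. Sums on different slides rest on different probes and are not compared. None of the 6 was at background on all arrays. By limma 0 of the 6 were called between 5-month and primary hepatocytes, with 3 at an unadjusted p under 0.05, and 0 were called by the methods' t-test unadjusted. The part of other cells in the levels of Clec2h and Tff3 was not tested, and in bulk samples fewer cells of a type and less RNA per cell cannot be told apart.

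**Figure D2:**
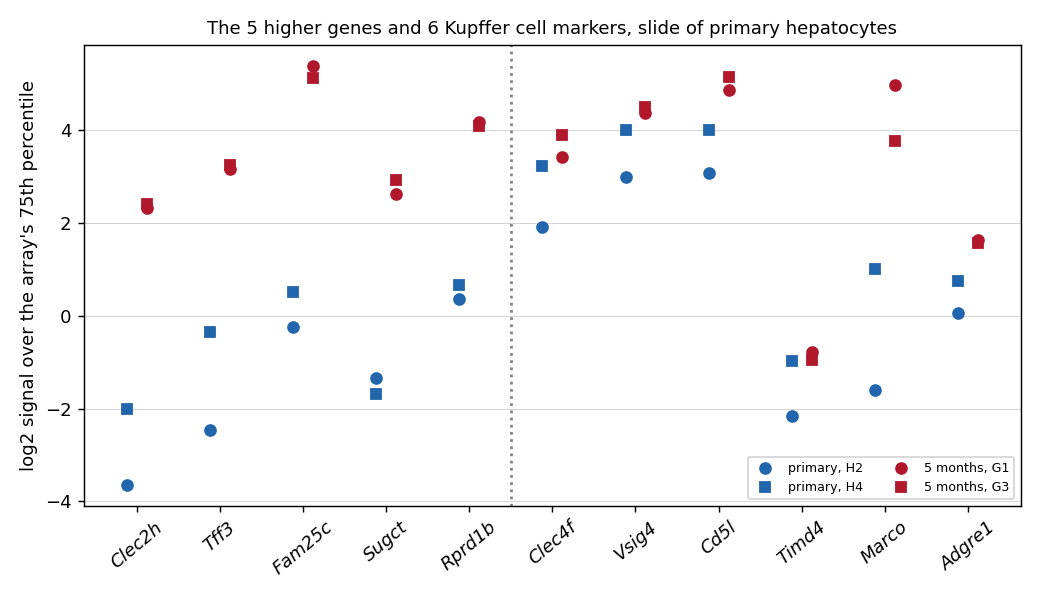
Log2 signal over the array's 75th percentile of the 6 Kupffer cell markers and of the 5 rising genes on the arrays of primary (H2, H4) and 5-month hepatocytes (G1, G3). The 6 markers and 4 of the 5 rising genes, all but Sugct, lie higher on H4 than on H2.

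Fam25c was at -1.94 and -1.16 in primary hepatocytes, while the 1-month arrays were at -0.05 and -1.50 and the 5-month arrays at 3.78 and 3.47. Neither Lin- BM cell array was well above background (-8.09 and -8.25 as measured). The 1-month and primary arrays overlapped, with means of -0.78 ± 1.03 and -1.55 ± 0.55, and the 5-month mean (3.62 ± 0.21) lay above both. It exceeded the primary mean by 5.17, and 1 month minus 5 months was -4.40.

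Sugct was at -3.05 and -3.36 in primary hepatocytes, -3.32 and -3.38 at 1 month, 1.02 and 1.26 at 5 months, and -4.32 and -5.84 in Lin- BM cells, where L4 was not well above background. The 1-month mean differed from the primary mean by -0.15, within the gap of the primary arrays, and the 5-month mean was 4.34 above the latter. Its second probe, found on the slide with Lin- BM cells, stayed near background there, and at 1 month the level was at least 2.99-fold higher. The pair of Sugct probes is shown because they are not independent. They share a stretch of 29 bases with 1 substitution, A17G, counted from 1 at the 5′ end of the stretch with the base of the shared probe first, and in capitals here.
Shared probe: tctgctctggtgtgatAgagcaacatgaa
Second probe: tctgctctggtgtgatGgagcaacatgaa
The part of the substitution in the signal of either probe was not tested.

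Rprd1b was the one gene for which Lin- BM cells were the highest group. By its brighter shared probe it was at 2.68 and 3.03 in Lin- BM cells, 2.56 and 2.42 at 5 months, -1.33 and -1.0 in primary hepatocytes, and -1.38 and -2.19 at 1 month. The 5-month mean was 3.66 above primary hepatocytes and differed from Lin- BM cells by -0.36, with no overlap of the arrays. The other shared probe gave another picture. Its levels were -1.86 and -1.94 at 5 months and -1.57 and -1.90 in primary hepatocytes, which overlapped and differed by -0.16 in the mean. It was at -1.94 and -1.37 in Lin- BM cells and -2.77 and -3.14 at 1 month, so that the 1-month group was the lowest by both probes. The rise of Rprd1b at 5 months thus rests on one of its probes, and the mean over both was 1.71. Tti1, which overlaps Rprd1b in the RefSeq table and encodes a partner of the chaperone of phosphatidylinositol 3-kinase-related kinases, differed by 0.02 between 5-month and primary hepatocytes (limma, adjusted p = 0.978).

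**Figure D3:**
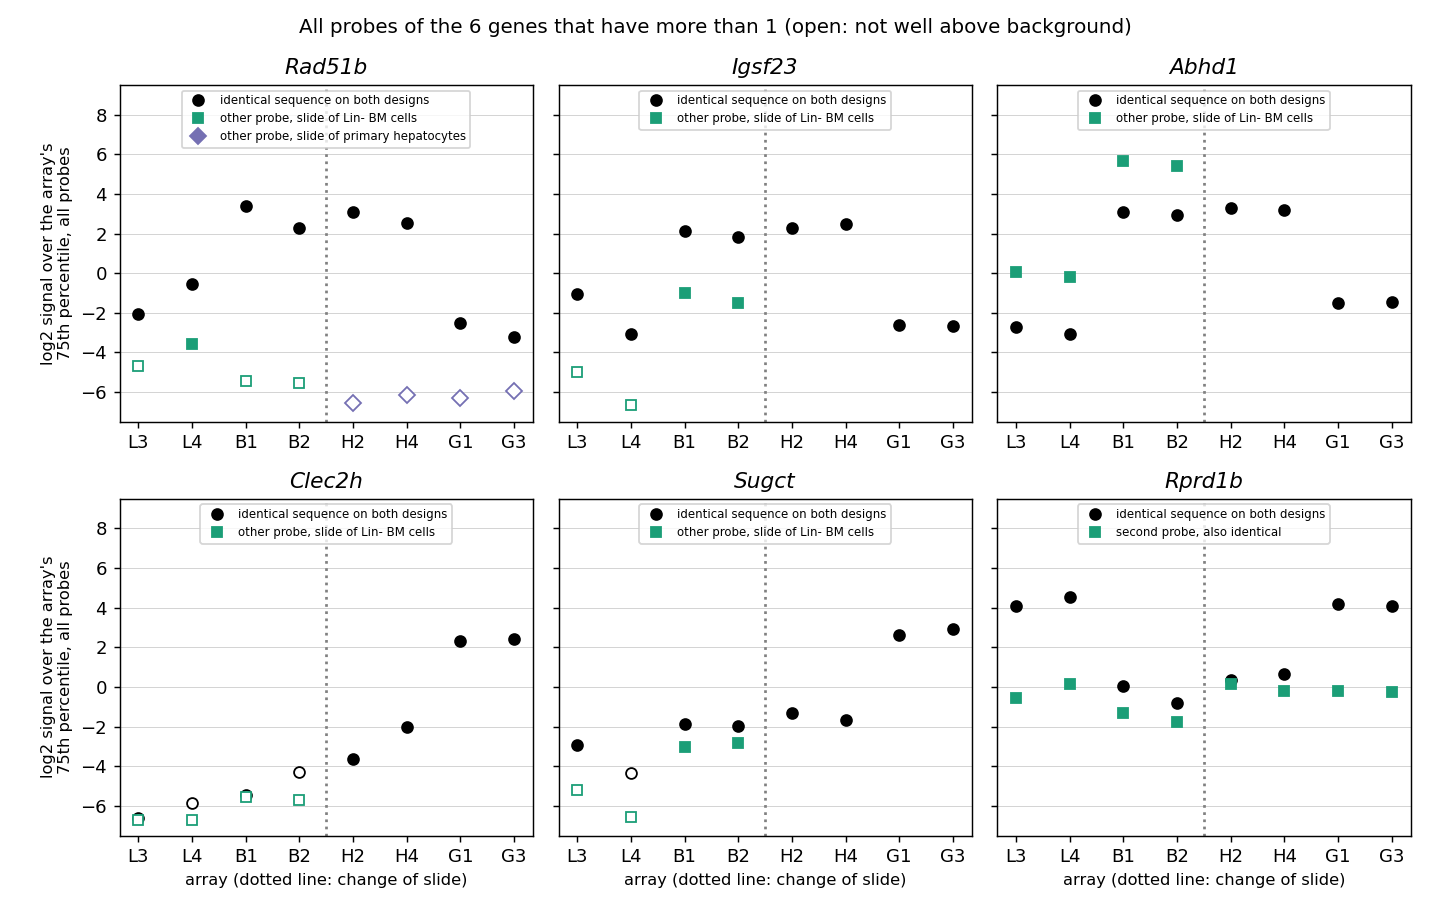
All probes of the 6 genes with more than 1 probe, as log2 signal over the array's 75th percentile across all probes of its design; the dotted line parts the slides and open symbols were not well above background. Both probes of Rprd1b are on both designs, and one of them separates 5-month from primary hepatocytes while the other does not.

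Across the 10 genes, each by the probe that stood for it, the 5-month arrays lay outside the joint range of the 1-month and primary arrays. They were under it for the falls and above it for the rises. Against primary hepatocytes this is what the rule fixed. The level at 1 month was not part of the rule, although the spread of the 1-month arrays entered the test behind it. The 1-month minus the 5-month mean was 4.72 to 5.91 for the falls and -4.48 to -4.28 for Fam25c, Sugct and Rprd1b, all across slides. Clec2h and Tff3 were not well above background on 2 and 1 of the 1-month arrays, and no size is given for them. As measured by the same probes, the 1-month mean was closer to primary hepatocytes than to 5 months for all 10. Differences from primary hepatocytes were -3.21 (Myom2) to 0.96 (Gdpd3), and the arrays of both groups overlapped for Rad51b, Igsf23, Abhd1, Fam25c and Sugct. By the other shared probe of Rprd1b the 5-month and primary arrays overlapped. The 1-month mean by that probe was closer to 5 months (-1.05) than to primary hepatocytes (-1.22). The shares of the 10 genes are set beside those of other genes. Among 62 other genes with a gap of at least 3 between 5-month and primary hepatocytes, the 1-month mean was closer to primary hepatocytes for 40 (64.5%). Both 5-month arrays lay below all 1-month and primary arrays for 19 of them and above all of these arrays for 35 (87.1% together). Among all 9215 other genes these shares were 49.3% and 25.5%. The comparisons share the 5-month or the primary arrays, and no test was made of them.

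Lin- BM cells had the lowest mean for 6 of the 10 genes. Rad51b and Igsf23 were lowest at 5 months and Rprd1b at 1 month, and for Clec2h the order of Lin- BM cells and 1 month was not measured. The 5-month arrays overlapped with those of Lin- BM cells for Igsf23. For Myom2 and Rprd1b the 5-month mean lay within 0.60 of the Lin- BM cell mean, and for Gdpd3 and Abhd1 it was 2.50 and 1.22 above. The 4 rises other than Rprd1b were highest at 5 months.

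Lin- BM cells and 1-month hepatocytes share a slide, and the difference between them took no part in choosing the genes, although the spread of their arrays entered the test behind the choice. This comparison asks how the genes differed between the cells before transplantation and BM-derived hepatocytes 1 month later. Of the 10 genes, 8 passed the filter on low signals on that slide and were tested with limma among 28522 genes, of which 28.8% were called higher at 1 month and 26.5% lower (8225 and 7552 genes, or 10189 and 6049 with normexp background correction, which moved the median of all genes from 0.07 to 0.36). Here 7 were called higher and Rprd1b lower. With 15777 of all genes called, a call is not particular to these genes. Fam25c and Sugct passed the filter only through the 1-month group, in which they were high, so that their direction was fixed by it. Clec2h and Tff3 did not pass.

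Among the genes well above background in both groups Gdpd3 had the largest change, from -3.72 and -3.70 in Lin- BM cells to 4.37 and 4.61 at 1 month, on the scale of all probes of that slide. It was higher by 8.19 (SE 0.26, n = 2, limma adjusted p = 9.26e-05). Myom2 rose from -3.41 and -3.35 to 1.96 and 2.73, by 5.73 (SE 0.35, adjusted p = 0.000489). Both genes were thus higher on each 1-month array than on each Lin- BM cell array.

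Abhd1 was tested by its second probe, the brighter on that slide, and rose by 5.59 (SE 0.28, limma adjusted p = 0.000288). Its arrays went from 0.08 and -0.18 to 5.66 and 5.41. Rad51b rose by 4.12 (SE 0.65, limma adjusted p = 0.00637) and Igsf23 by 4.04 (SE 0.69, limma adjusted p = 0.00801). The last pair had the widest spread in Lin- BM cells, -2.06 and -0.55 for Rad51b and -1.07 and -3.05 for Igsf23, and the 1-month arrays still lay above both. For Fam25c neither Lin- BM cell array was well above background, and the level at 1 month was at least 35.2-fold higher (limma adjusted p = 0.000796), with 1-month arrays at 1.40 and -0.11.

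Rprd1b fell by 4.67 on the log2 scale (SE 0.41, limma adjusted p = 0.00124), from 4.06 and 4.55 to 0.06 and -0.80. Sugct rose least, by 1.71 (SE 0.51, limma adjusted p = 0.0393), from -2.95 and -4.32 to -1.87 and -1.99. Its call did not hold in 4 of 11 other settings. It was lost without L4 (1.02), which was not well above background, without B1 (1.65), without B2 (1.77) and with no filter on dim probes. The other 7 calls held in the alternatives tried, with limma adjusted p of at most 0.0447 (Igsf23), but with normexp background correction all 8 changes were smaller. They were then 5.51 for Gdpd3, 4.83 for Abhd1, 3.38 for Myom2, 3.07 for Rad51b, 2.67 for Igsf23, 2.62 for Fam25c, 0.853 for Sugct and -4.08 for Rprd1b. With the mean over its probes Rprd1b was at -3.0.

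**Figure D4:**
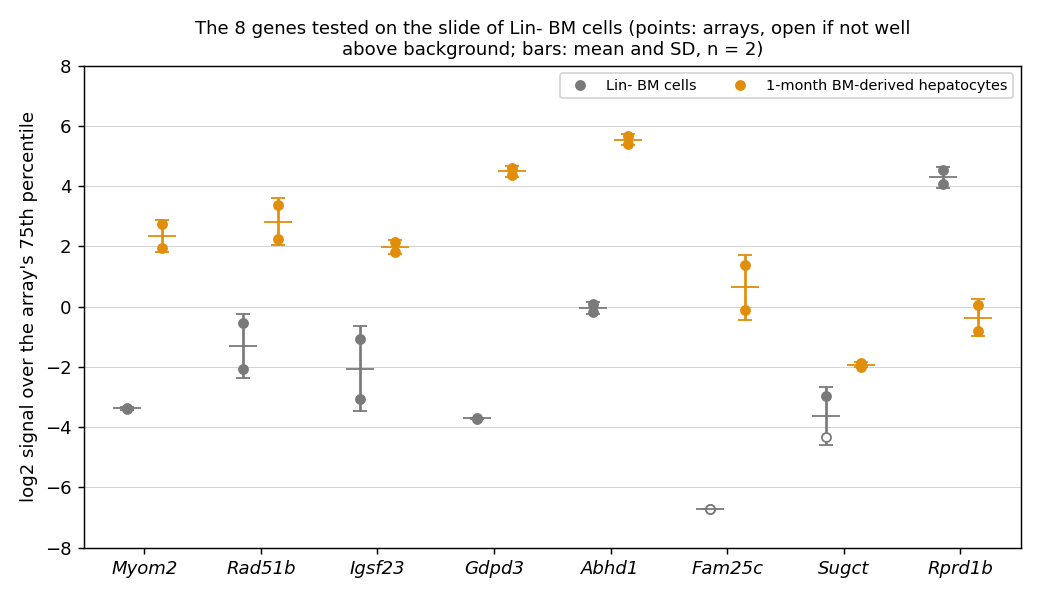
The 8 genes tested between Lin- BM cells and 1-month hepatocytes, as log2 signal over the array's 75th percentile across all probes of their slide; points are arrays and bars the mean and SD of 2. Gdpd3 rose by 8.19, Sugct least, by 1.71, and Rprd1b fell.

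Genes that lie beside the 10 in the genome were read to see whether they differed as well. The 2 nearest protein-coding genes on each side in the RefSeq table are 40 genes, of which 24 were tested between 5-month and primary hepatocytes. By limma 0 were called, with 3 at an unadjusted p under 0.05 and 2 by the methods' t-test unadjusted. Of all 19929 genes 0.552% were called, a count of 110 that was 0 without G1 or G3, 1533 without H2 and 1624 without H4. The median difference of the 24 neighbours was 0.23, beside 0.04 for all genes. The range was -2.99 for Kbtbd11 (SE 1.5), a neighbour of Myom2, to 0.97 for A2ml1 (SE 0.30), a neighbour of Clec2h. Without H2, 1 neighbour was called, Kbtbd11, at -5.20. The 10 genes themselves had log2 differences of -8.41 to -4.72 and 3.62 to 5.19 on the same scale.

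Between Lin- BM cells and 1-month hepatocytes 29 of the 40 neighbours were tested, with a median of 0.79, beside 0.07 for all genes. By limma 12 were called higher (41.4%) and 8 lower (27.6%), beside 28.8% and 26.5% of all genes. Khk, which phosphorylates fructose and lies beside Abhd1, rose by 3.59 (SE 0.26), and Glud1, the mitochondrial glutamate dehydrogenase beside Fam25c, by 3.16 (SE 0.29). Mmrn2, an endothelial extracellular matrix protein also beside Fam25c, rose by 4.63. Coro1a, an actin regulator of leukocytes beside Gdpd3, fell by 8.07. Klrb1c, a natural killer cell receptor gene beside Clec2h, fell by 6.54, with 1 of 2 arrays well above background at 1 month. Klrb1c thus passed the filter only through Lin- BM cells, which fixed its direction. The neighbours called were 13 without B1 and 12 without B2.

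Families and pathways of the 10 genes were read from 9 lists. Together they hold 108 other genes, of which 70 were tested between 5-month and primary hepatocytes. Again 0 were called by limma, and the median was -0.02. An unadjusted p under 0.05 was found for 10, beside 2814 of all 19929 genes. The methods' t-test unadjusted called 3, beside 1363 of all genes. Leaving out H2 or H4 gave 6 and 5 calls. Among the M-band and sarcomere genes 3 were tested, with Myom3 at -2.25 and the median at 0.22. In the alpha/beta hydrolase family 17 were tested, between -0.87 (Abhd2) and 1.46 (Abhd6), the latter a monoacylglycerol lipase. On the same scale Myom2 was at -8.41.

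The rises had few relatives with a signal. Of the CLEC2 family and NKR-P1 receptors 3 were tested between 5-month and primary hepatocytes, with a median of 0.23. Tff2 was not tested, and among the mucins and related genes Muc13 was at least 2.08-fold higher at 5 months, with neither primary array well above background, and Fcgbp, which encodes an Fc-binding mucus protein, at least 5.58-fold lower, with neither 5-month array well above background; neither was called by limma (adjusted p = 0.207 and 0.182). For Sugct, 13 genes of lysine and glutarate breakdown were tested, between -1.44 (Dhtkd1, part of the 2-oxoadipate dehydrogenase) and 0.26, with a median of -0.23. For Rprd1b, 13 regulators of the C-terminal domain of RNA polymerase II lay between -1.45 (Cdk7) and 0.50.

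**Figure D5:**
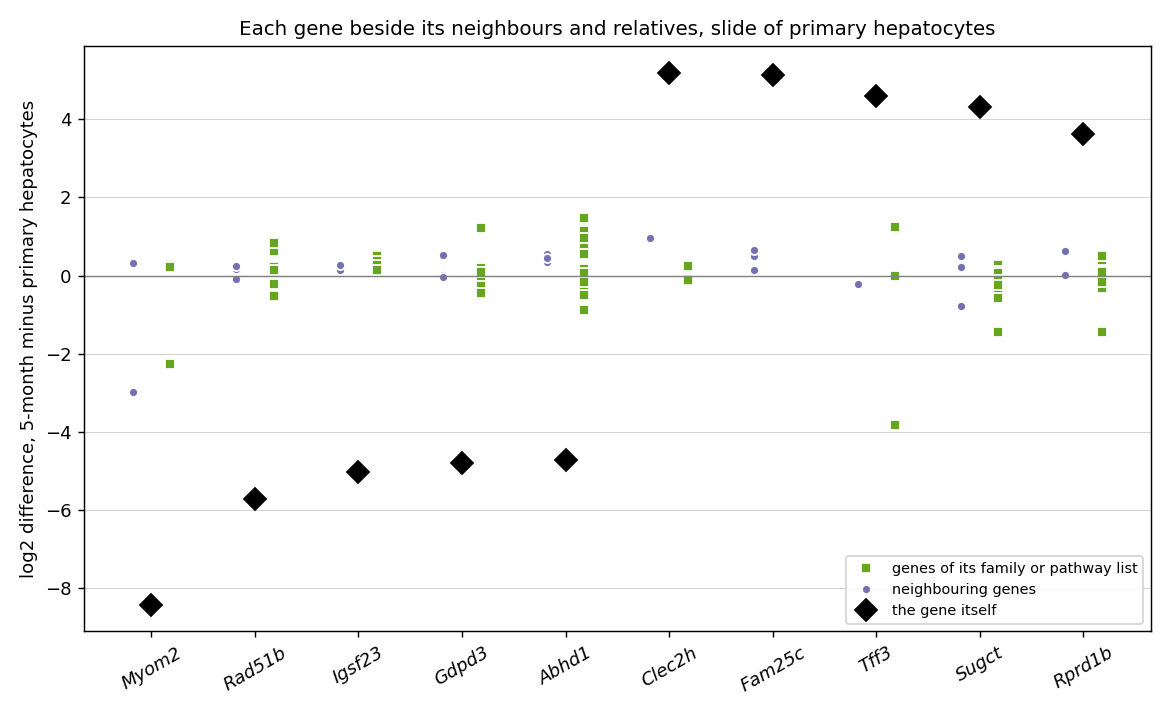
Log2 difference between 5-month and primary hepatocytes, within their slide, of each of the 10 genes (large symbols) and of its tested neighbours and family genes (small symbols). The 10 genes, chosen for their gaps, lie at -8.41 to -4.72 or 3.62 to 5.19, and the genes beside them, which were not so chosen, between -2.99 (Kbtbd11) and 1.46 (Abhd6), with Fcgbp, not well above background at 5 months, drawn at its measured -3.81.

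Between Lin- BM cells and 1 month 90 of the family genes were tested, with a median of 0.16. By limma 31 were higher (34.4%) and 30 lower (33.3%), beside 28.8% and 26.5% of all genes tested. Rises were most frequent in lysine and glutarate breakdown, a mitochondrial pathway of the liver, with 11 of 13 higher, 0 lower and a median of 2.87. Aass, which starts the breakdown of lysine, rose by 10.68, with 1 Lin- BM cell array well above background. Aadat, which transaminates 2-aminoadipate, was at least 825-fold higher, since neither Lin- BM cell array was well above background. Gcdh, the glutaryl-CoA dehydrogenase, rose by 4.72. Aass, Aadat, Aldh7a1 and Dhtkd1 passed the filter only through the 1-month group, so that their direction was fixed by it. Of the CLEC2 and NKR-P1 genes 7 of 8 were lower, with the receptor gene Klrb1f at least 11-fold lower, and Clec2d (1.81) was higher. The 7 had at most 1 of 2 1-month arrays well above background, so they passed the filter only through Lin- BM cells, and their direction was fixed by it. In the alpha/beta hydrolase family 9 of 18 were higher and 2 lower, with Abhd14b at 4.35 and Abhd6 at 4.25, beside 5.59 for Abhd1.

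The glycerophosphodiester phosphodiesterase and N-acylethanolamine genes, the relatives of Gdpd3, had 3 of 9 higher and 2 lower at 1 month. Faah, which hydrolyses N-acylethanolamines, rose by 3.68, and Gdpd2 was at least 1.68-fold lower, whereas Gdpd3 had risen by 8.19. With normexp background correction 3 of these 9 were higher and 0 lower, and 4 of the 8 CLEC2 and NKR-P1 genes were lower. Of the trefoil factors and mucins 4 of 7 were higher, among them Tff1 (1.75) and Muc1 (1.97), and Muc13, a membrane mucin, was at least 26.4-fold lower. Of the regulators of the C-terminal domain 7 of 13 were lower and 0 higher, with a median of -1.12, and Rprd1b was also lower. Of all genes tested, 28.8% were called higher and 26.5% lower. Of the carcinoembryonic antigen related genes beside Igsf23, Ceacam2 (4.5) and Ceacam1 (3.64) were higher and Ceacam16 (-2.54) lower. Gdpd2, Muc13 and Ceacam16 passed the filter only through Lin- BM cells, so that their direction was fixed by it.

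Likeness of pattern was measured as Pearson's r of the log2 level over all 8 arrays, among the 9225 genes with a shared probe. The points share slides and groups, r takes no account of the size of a change, and no p is given. Within the falls the 10 pairs of genes had r of 0.844 to 0.987 (median 0.904), and Gdpd3 and Abhd1 were the closest. All of the falls were chosen as high on the primary and low on the 5-month arrays, 4 of the 8 points, and the rises the other way, so high values within each set follow in part from the choice. Within the rises r was -0.186 to 0.986 (median 0.865), with Clec2h and Tff3 the closest and Rprd1b apart.

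Among the 3 genes most like each one were, for Myom2, Spag4 (0.983), Wdr72 (0.977) and Hddc3 (0.968), and for Rad51b, Shoc2 (0.976), Snap23 (0.962) and Fn3krp (0.948). For Igsf23 they included Nuggc (0.961) and Vmn1r53 (0.961). Gdpd3 was most like Gpd1l (0.992), Abhd1 (0.987) and Trhde (0.985), and Abhd1 like E030003E18Rik (0.997), Rab11a (0.995) and Vmn1r53 (0.988). Vmn1r53 thus appeared for both Igsf23 and Abhd1. Some of these genes had means about as low as that of Clec2h in Lin- BM cells (-7.70), which was not well above background. They include Vmn1r53 (-8.06 in Lin- BM cells and -7.82 at 5 months), E030003E18Rik (-8.10 and -7.65) and Wdr72 (-8.08 and -7.87). The part of background in these likenesses was not tested. For Clec2h the closest were Adal (0.988), Tff3 (0.986) and Tgfbrap1 (0.981), and for Tff3 they were Clec2h, Tgfbrap1 (0.981) and Adgrf1 (0.976). Sugct was most like Ddhd1 (0.962), Tff3 and Adgrf1 (both 0.959), and Fam25c like Ppib (0.993), Araf (0.987) and Vmp1 (0.986). Rprd1b stood with Mau2 (0.987) and Napa (0.980), neither of which was among the closest of another of the 10 genes.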

How the data were processed

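The deposited arrays hold, for each spot, the background-subtracted signal of Feature Extraction as intensities. The authors then took log2 and shifted each array to its 75th percentile in GeneSpring GX, and apart from a constant shift of each array their log2 values matched those computed here to within 0.02 for 99.83% of probes or more. Here log2 intensities were shifted to the 75th percentile. Spots marked as outliers (6 to 152 per array) and control probes were left out. With normexp, control probes entered the background correction and were left out after it. A probe entered if at least 1 group had both arrays well above background, and the brightest probe stood for a gene. Across slides the 13991 sequences found on both designs (61307 and 55681 probes, mm9) were used, with no test. Within a slide limma 3.58.1 (R 4.3.3) was fitted to its 4 arrays, p-values were adjusted by Benjamini and Hochberg's method over the genes tested, and calls needed a log2 change larger than 0.6 in size and an adjusted p under 0.05. The methods' t-test used the same values. Steps were tested on simulated data. "At least" folds compare with the lowest signal well above background on an array, or the dim probe's own if higher. Named were the 10 genes, the next in rank, the 3 most alike each, and neighbours and listed family genes that were called or bright, besides ends of a range and relatives named after their values were seen. The 10 genes, the lists and the rules were chosen with earlier results of these data known. A few genes and 1 list are not reported here. Names come from RefSeq (GRCm38). Tables used Python 3.11.15, numpy 2.4.6, pandas 2.3.3, scipy 1.17.1 and matplotlib 3.10.9.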

Additional observations from a re-analysis of the deposited data

How the results depend on the processing

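With 2 arrays per group and weak signals closest to background at 1 month, counts of calls moved more than values did. Between 1-month hepatocytes and Lin- BM cells 15777 of 28522 genes were called, 26463 with no filter on dim probes, 5776 of 9225 in a fit of all 8 arrays over probes of identical sequence, 4566 by the methods' t-test after Benjamini-Hochberg adjustment, and 9774 to 12629 with each array left out. With normexp background correction 10189 were higher and 6049 lower, against 8225 and 7552. Between 5-month and primary hepatocytes 110 of 19929 were called (73 higher and 37 lower), 38 with no filter, 47 with the filter on all 4 arrays, 1363 by the methods' t-test unadjusted and 0 after adjustment, 0 to 1624 with each array left out, and 158 with normexp. The fit of all 8 arrays gave 96 (51 higher and 45 lower). For the tested members, 4 of 94 alternative values from limma lost the call, all of Sugct, and 0 reversed. The methods' t-test is not among these 94. Normexp left 58.1% to 89.8% of the members' gaps between 5-month and primary hepatocytes. Across slides, 2 of 440 alternative values reversed: Igsf23 at 5 months against Lin- BM cells without L3 (0.29, and -1.85 without L4), and Clec2h at 1 month against primary hepatocytes with normexp (0.31). Counts of neighbours and family genes in other settings were added after seeing the data. Of the neighbours, called between 5-month and primary hepatocytes were 1 in the fit of all 8 arrays, 2 by the methods' t-test unadjusted and 0 to 1 with each array left out. At 1 month 6 were called by the methods' t-test after adjustment and 12 to 17 with each array left out. Of the family genes, 3 were called at 5 months by the methods' t-test unadjusted and 0 to 6 with each array left out. At 1 month 33 were called in the fit of all 8 arrays, 19 by the methods' t-test after adjustment and 46 to 59 with each array left out. The cause of these shifts was not tested. No paired analysis was possible because the groups compared share fewer than 2 replicate numbers.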
